A study of Mus musculus with 12 samples.

Results

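Replication licensing genes encode the machinery that prepares chromosomes for copying, and 10 of them, among 18193 genes with a probe set of their own, were followed in the newborn mouse bladder. They were 6 subunits of the MCM helicase (Mcm2, Mcm3, Mcm4, Mcm5, Mcm6 and Mcm7), the loading factors Cdc6 and Cdt1, the replication initiation factor Mcm10 and cyclin E1 (Ccne1). The members were the probe sets whose only gene symbol was 1 of these names. This gave 28 of the 45101 probe sets on the array, of which 22 passed a filter on low intensity that 22518 probe sets passed. The filter kept probe sets whose mean log2 level over all arrays lay above the median of these means, 8.02. Each of the 10 genes had its brightest probe set among the 22, and that one stands for the gene below unless another is named. The 6 left out were dim second probe sets of Mcm3, Mcm5, Mcm6, Mcm10 and Cdt1, with intensities between 2.10 and 202.3.

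RNA came from bladders taken whole on postnatal day 1 from FVB/N mice, and 12 one-colour Affymetrix arrays were made, 1 for each unpooled sample. The 3 SMGA/EGFP samples carried a transgene in which the promoter of smooth muscle gamma actin (Actg2) drives a green fluorescent protein. The 3 SMAA/EYFP samples carried a transgene with the promoter of smooth muscle alpha actin (Acta2) and a yellow fluorescent protein, and the 6 wild-type samples carried neither. Every animal was labelled male, the dams were FVB/N females mated to transgenic males, and the stated aim was to learn how transgene expression affects the bladder's profile. Genotype cannot be told apart from sire or litter, and the labels do not say from how many litters a group came. The labels carry database record numbers in a pair of runs, the first holding the SMGA/EGFP arrays and wild type 1 to 3, the second the SMAA/EYFP arrays and wild type 4 to 6.

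Median intensity per array ran from 229.4 to 305.9, highest in SMGA/EGFP 1, and array number (3, 3 and 6) limits the precision. Summed over 7 of 7 smooth muscle markers, intensity was 253956 to 340758 on every array, and over 7 of 7 urothelial markers 95694 to 137182, so both main tissues of the bladder were present throughout. On wild type 4 Xist was at 29604, where the other arrays had 80.1 to 250.4, and its Y-linked genes Eif2s3y, Kdm5d and Uty were at 26.7, 28.0 and 48.6, which goes against its male label. SMGA/EGFP 1 stood apart in the licensing genes: it was the lowest of the 12 arrays for 8 of 10, against 18.8% of all probe sets tested. It also stood apart over the whole profile. Its share of lowest values was the largest of any array (the next was 10.7%, in SMGA/EGFP 2). Its share of highest values, 14.8%, was the largest as well (the next was 9.69%, in SMAA/EYFP 1). Licensing results that rest on SMGA/EGFP 1 are given without it as well. The members' medians against wild type and between the runs are also given without wild type 4.

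Licensing takes place in G1. The origin recognition complex marks an origin, CDC6 joins it, and CDT1 brings MCM2 to MCM7 so that this ring of ATPases closes around DNA as an inactive double hexamer. At the start of S phase, cyclin-dependent and DBF4-dependent kinases, with MCM10, turn the loaded rings into moving helicases. Cyclin E1 with CDK2 drives that entry. The genes are classical targets of E2F transcription factors, and their RNAs are abundant in dividing cells and scarce in cells at rest. In bulk RNA, fewer dividing cells and less RNA in each cell cannot be told apart.

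Promoter sequences are shown because E2F control is the feature these genes are best known to share. RefSeq windows of build GRCm38.p6, from 250 bases before to 50 after a gene's start, were at hand for 9 of the 10 genes (10 windows, a pair for Mcm7); Mcm4 had none matched. E2F-type letters were taken as TTNNCGC, each N being C or G, on either strand, together with the CCAAT box and the letters TTTGAA of the CHR element known from mitotic genes. Capitals mark these letters below, and capitals that run together are overlapping matches. The stretch of Mcm5 is chr8:75109339-75109438 (plus strand, 170 to 71 bases before the start), that of Mcm6 is chr1:128359715-128359820 (minus strand, 115 to 10 before it), that of Cdc6 is chr11:98908001-98908030 (plus strand, 150 to 121 before it) and that of Mcm2 is chr6:88898831-88898860 (minus strand, 80 to 51 before it).
Mcm5: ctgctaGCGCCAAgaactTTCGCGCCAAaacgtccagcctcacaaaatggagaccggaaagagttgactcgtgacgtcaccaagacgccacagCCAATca
Mcm6: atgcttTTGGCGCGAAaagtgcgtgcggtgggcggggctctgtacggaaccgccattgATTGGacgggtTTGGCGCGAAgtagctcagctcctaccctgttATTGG
Cdc6: ggccggtggagaGCGGGAAatcgcctgggg
Mcm2: ggctcagcctTTTGAAagctgtgggcgggg
The Mcm5 and Mcm6 stretches hold paired, overlapping E2F-type letters with a CCAAT box downstream, Cdc6 holds a single E2F-type match, and the Mcm2 stretch shows its CHR letters. Over all member windows, 7 of 10 (70.0%) held E2F-type letters, in 6 of 9 genes, against 9.57% of 32851 windows in the RefSeq table. Mcm2, Mcm10 and Ccne1 had none in these windows. CCAAT stood in 7 of 10 windows (70.0%), against 37.4% of all, and TTTGAA in 1 of 10, that of Mcm2, against 17.9%. The mitosis genes described further on differed in these letters, with E2F-type letters in 15.0% of 20 windows, CCAAT in 90.0% and TTTGAA in 15 of the 20. A match is a description of letters and not a shown site, and a window without one says nothing of the factor.

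By group mean most licensing genes lay highest in SMAA/EYFP bladders and lowest in SMGA/EGFP bladders, but none passed the test in any comparison. The low place of SMGA/EGFP rested on SMGA/EGFP 1: the median difference from wild type was -0.16 over all arrays and 0.07 without that array, when 3 of 10 genes remained below wild type. Over all arrays, 8 of 10 genes had the order SMAA/EYFP, wild type, SMGA/EGFP from high to low. The exceptions were Mcm10, lowest in wild type, and Ccne1, highest in wild type by a margin far inside its spread. Neighbouring groups in these orders overlapped in their arrays for every gene except Cdc6, where SMAA/EYFP lay clear of wild type, and Mcm10, where SMGA/EGFP lay clear of SMAA/EYFP on the normalized scale. Tests were limma's moderated test on log2(intensity + 16) after quantile normalization, with all 12 arrays in the fit, Benjamini-Hochberg adjustment over the 22518 probe sets and a threshold of 0.05. Differences below are on that log2 scale with their standard errors (SE), and single intensities are as deposited.

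**Figure D1:**
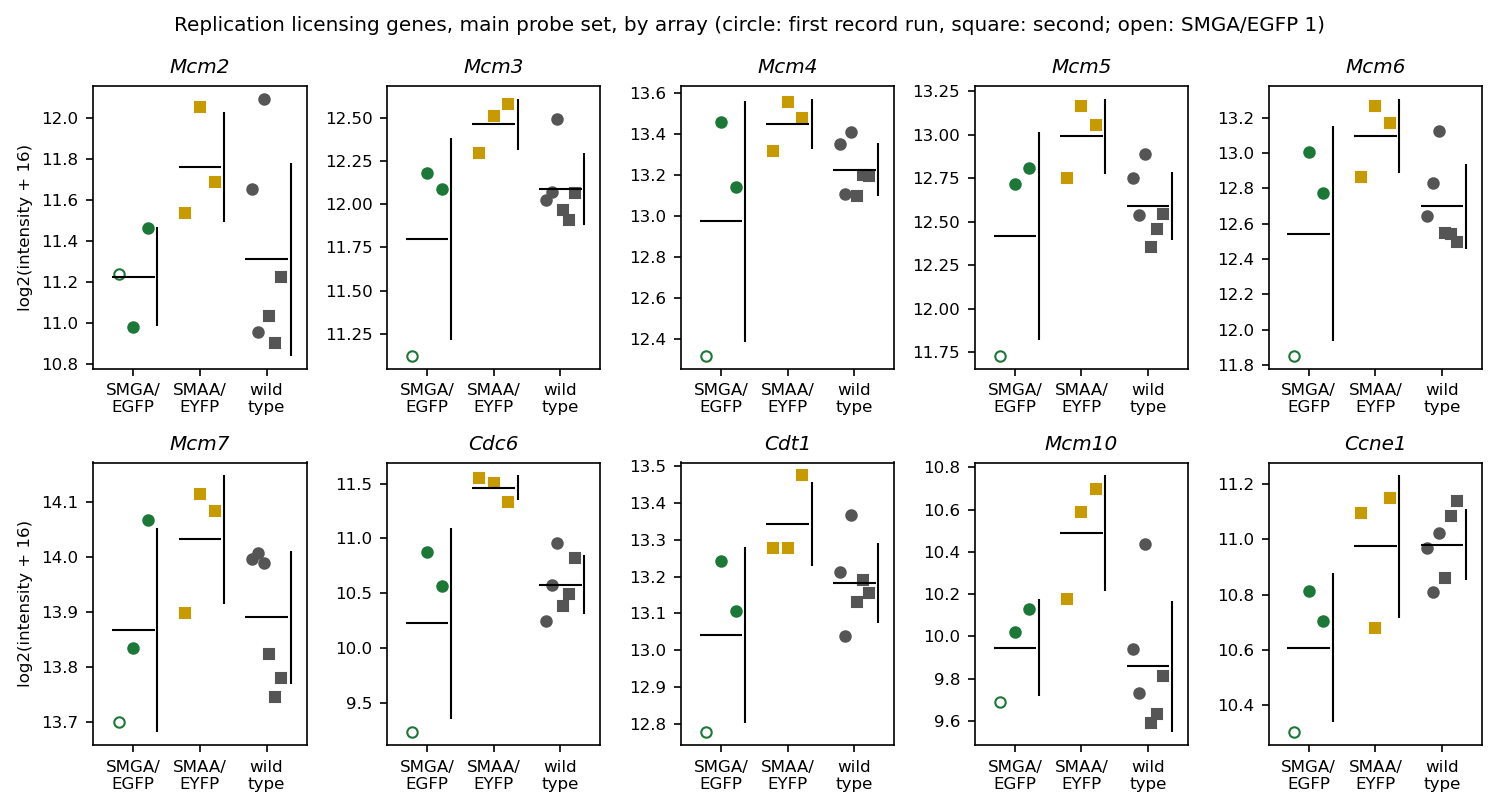
Level of each licensing gene, log2(intensity + 16) after normalization, on each of the 12 arrays, with 1 panel and 1 y scale per gene. Points are arrays, horizontal bars group means and vertical lines ± 1 SD; the open circle, SMGA/EGFP 1, is the lowest point in 8 of the 10 panels, and the 3 SMAA/EYFP squares of Cdc6 lie above every other array.

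Among the MCM subunits, Mcm3, a regulatory subunit of the ring, was far lower on SMGA/EGFP 1 than elsewhere. Its intensities were 2211, 4642 and 4425 in SMGA/EGFP 1 to 3, 5007, 5858 and 6086 in SMAA/EYFP 1 to 3, and 3847 to 5785 with a median of 4199.6 in wild type. SMGA/EGFP 1 was the lowest of all arrays, and the other SMGA/EGFP arrays sat within the wild-type range. The difference from wild type was -0.29 ± 0.20 in SMGA/EGFP (limma adjusted p = 0.783) and 0.37 ± 0.20 in SMAA/EYFP (limma adjusted p = 0.991). The other 3 tested probe sets of Mcm3 gave -0.26, -0.53 and -0.49 in SMGA/EGFP and 0.38, 0.35 and 0.36 in SMAA/EYFP.

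Mcm4, Mcm5 and Mcm6 had the same shape. Mcm4, part of the catalytic core, measured 4932, 11326 and 9045 in SMGA/EGFP, 10364, 12052 and 11439.9 in SMAA/EYFP, and 8667 to 11247 with a median of 9545 in wild type. Mcm5, a regulatory subunit at the gate with MCM2, measured 3305, 6777 and 7202 in SMGA/EGFP, 6912, 9181 and 8545 in SMAA/EYFP, and 5226 to 7650.2 with a median of 5963 in wild type. Mcm6, a core subunit, measured 3597, 8273 and 7036 in SMGA/EGFP, 7495, 9868 and 9186 in SMAA/EYFP, and 5801 to 9102 with a median of 6142 in wild type. In all of these genes SMGA/EGFP 1 was the lowest array, SMGA/EGFP 2 and 3 were inside or above the wild-type range, and SMAA/EYFP overlapped wild type. Their differences from wild type were -0.25 ± 0.18, -0.17 ± 0.20 and -0.15 ± 0.21 in SMGA/EGFP and 0.22 ± 0.18, 0.40 ± 0.20 and 0.40 ± 0.21 in SMAA/EYFP.

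The other tested probe sets of these 3 genes gave -0.21 to -0.38 in SMGA/EGFP and 0.15 to 0.37 in SMAA/EYFP.

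Mcm7, a core subunit, varied least of the members by its main probe set (SD over the 12 arrays 0.14). It measured 12994, 14536 and 16751 in SMGA/EGFP, 15689, 17368 and 17201 in SMAA/EYFP, and 13830.3 to 16834 with a median of 15246 in wild type. All groups overlapped. Its difference was -0.02 ± 0.09 in SMGA/EGFP (95% interval -0.22 to 0.18) and 0.14 ± 0.09 in SMAA/EYFP (-0.06 to 0.34). The other tested probe sets of Mcm7 varied more (SD 0.19 to 0.20), above the 0.17 of the main probe set of Cdt1. They gave -0.08, -0.06 and -0.08 in SMGA/EGFP and 0.21, 0.17 and 0.17 in SMAA/EYFP.

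Mcm2, which carries a histone-binding tail, departed from the other subunits. Its main probe set measured 2392, 2005 and 2853 in SMGA/EGFP, 2943, 4291 and 3318 in SMAA/EYFP, and 1886 to 4337 with a median of 2218 in wild type. Here SMGA/EGFP 2, not 1, was lowest within its group, and wild type 1 and 3 were as high as SMAA/EYFP. SMGA/EGFP differed by -0.08 ± 0.24 (95% interval -0.59 to 0.43) and SMAA/EYFP by 0.45 ± 0.24 (-0.06 to 0.96). The second tested probe set of Mcm2 followed the other subunits: it measured 1087, 2879 and 2775 in SMGA/EGFP and gave -0.34 ± 0.27 in SMGA/EGFP and 0.35 ± 0.27 in SMAA/EYFP, so the probe sets of this gene disagree on SMGA/EGFP 1.

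Of the loading factors, Cdc6, the ATPase that recruits MCM rings to the origin, had the widest differences. It measured 655, 1853 and 1522 in SMGA/EGFP, 2972, 2933 and 2569.9 in SMAA/EYFP, and 1242 to 1922 with a median of 1473 in wild type. The SMAA/EYFP arrays lay above all wild-type and all SMGA/EGFP arrays, while SMGA/EGFP 1 lay below all others and SMGA/EGFP 2 and 3 inside the wild-type range. Its difference from wild type was 0.88 ± 0.28 in SMAA/EYFP (1.85-fold, limma adjusted p = 0.991, unadjusted p = 0.00672) and -0.35 ± 0.28 in SMGA/EGFP (limma adjusted p = 0.801).

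Cdt1, the partner that delivers MCM rings and is destroyed once S phase starts, varied much less. It measured 6792, 9724.5 and 8816 in SMGA/EGFP, 10081, 9934 and 11394 in SMAA/EYFP, and 8289 to 10888 with a median of 9315 in wild type. SMGA/EGFP 1 was again lowest, and SMAA/EYFP overlapped wild type. The differences from wild type were -0.14 ± 0.10 in SMGA/EGFP and 0.16 ± 0.10 in SMAA/EYFP, and its second tested probe set gave -0.23 ± 0.15 and 0.20 ± 0.15.

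Mcm10, which helps to activate the loaded helicase, measured 872, 1031 and 1125 in SMGA/EGFP, 1091, 1548 and 1649.6 in SMAA/EYFP, and 760.1 to 1328 with a median of 851 in wild type. SMAA/EYFP 2 and 3 lay above all other arrays, and the lowest arrays were wild type 4 and 5, not SMGA/EGFP 1. Its difference from wild type was 0.63 ± 0.19 in SMAA/EYFP (limma adjusted p = 0.991, unadjusted p = 0.00535) and 0.09 ± 0.19 in SMGA/EGFP (95% interval -0.32 to 0.50).

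Ccne1, the cyclin that activates CDK2 at S phase entry, measured 1282, 1776 and 1680.4 in SMGA/EGFP, 2126, 1643 and 2269 in SMAA/EYFP, and 1804 to 2198 with a median of 2019 in wild type. All SMGA/EGFP arrays lay below the lowest wild-type intensity as deposited, though not after normalization, and SMAA/EYFP spanned the wild-type range. The difference was -0.37 ± 0.14 in SMGA/EGFP (limma adjusted p = 0.709, unadjusted p = 0.021), and its second tested probe set gave -0.20 ± 0.19. In SMAA/EYFP it was -0.01 ± 0.14 (95% interval -0.32 to 0.30), the only member without a difference above 0 there.

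For mice with the Actg2 transgene, set against wild type, 0 of 10 licensing genes passed (limma; lowest adjusted p = 0.709), where 0.0622% of all probe sets tested were called, and 1 of 10, Ccne1, had an unadjusted p under 0.05, against 6.92% of all. The median difference was -0.16, against -0.01 over all probe sets tested, and 9 of 10 genes were below 0, against 52.9% of all. No gene had arrays clear of wild type on the normalized scale, against 2.72% of all. The direction rested on SMGA/EGFP 1. Without that array the median was 0.07 and 3 of 10 genes were below 0: Mcm3 was at 0.05, Mcm4 at 0.07, Mcm5 at 0.18, Mcm6 at 0.19, Mcm7 at 0.06 and Cdc6 at 0.14. Mcm2, Cdt1 and Ccne1 stayed below 0, at -0.09, -0.01 and -0.22. A block for record run gave 10 of 10 genes below 0 and a median of -0.32. Leaving out wild type 4 gave a median of -0.20.

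For mice with the Acta2 transgene, set against wild type, 0 of 10 licensing genes passed (limma; lowest adjusted p = 0.991), as did 0 of 22518 probe sets (0%). At an unadjusted p under 0.05, 2 of 10 were higher, Mcm10 and Cdc6, against 2.67% of all probe sets tested. The median difference was 0.39, against 0.00 over all, and 9 of 10 genes were above 0, against 50.8% of all; over all tested probe sets of these genes it was 21 of 22. Cdc6 was the only gene whose SMAA/EYFP arrays all lay above wild type, which held for 1.72% of all probe sets in that direction. The median was 0.51 with a block for record run and 0.35 without wild type 4. Both comparisons use the wild-type arrays, so their differences share that side.

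SMGA/EGFP against SMAA/EYFP set the reporter groups against each other. All 10 genes were below 0, against 53.9% of probe sets tested, with a median of -0.54 against -0.02 over all, and none passed (limma; lowest adjusted p = 0.329), where 0.0799% were called. An unadjusted p under 0.05 was reached by 8 of 10, all but Mcm2 and Mcm7, against 5.12% of all probe sets in that direction. The widest difference was Cdc6 at -1.24 ± 0.32, 0.424 of the SMAA/EYFP level, and the narrowest was Mcm7 at -0.16 ± 0.11. Arrays did not overlap for the main probe sets of Mcm2, Mcm3, Mcm10, Cdc6 and Cdt1, 5 of 10 genes, against 8.06% of all probe sets. For Mcm10 the deposited intensities did overlap. Arrays also overlapped in the second tested probe sets of Mcm2 and Cdt1, while in that of Mcm5 they did not. Without SMGA/EGFP 1 the median was -0.22 and Cdc6 was at -0.74, and 1 of 10 genes had an unadjusted p under 0.05. The 5.12% above belongs to the fit with all arrays, so it is no background for that last count.

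**Figure D2:**
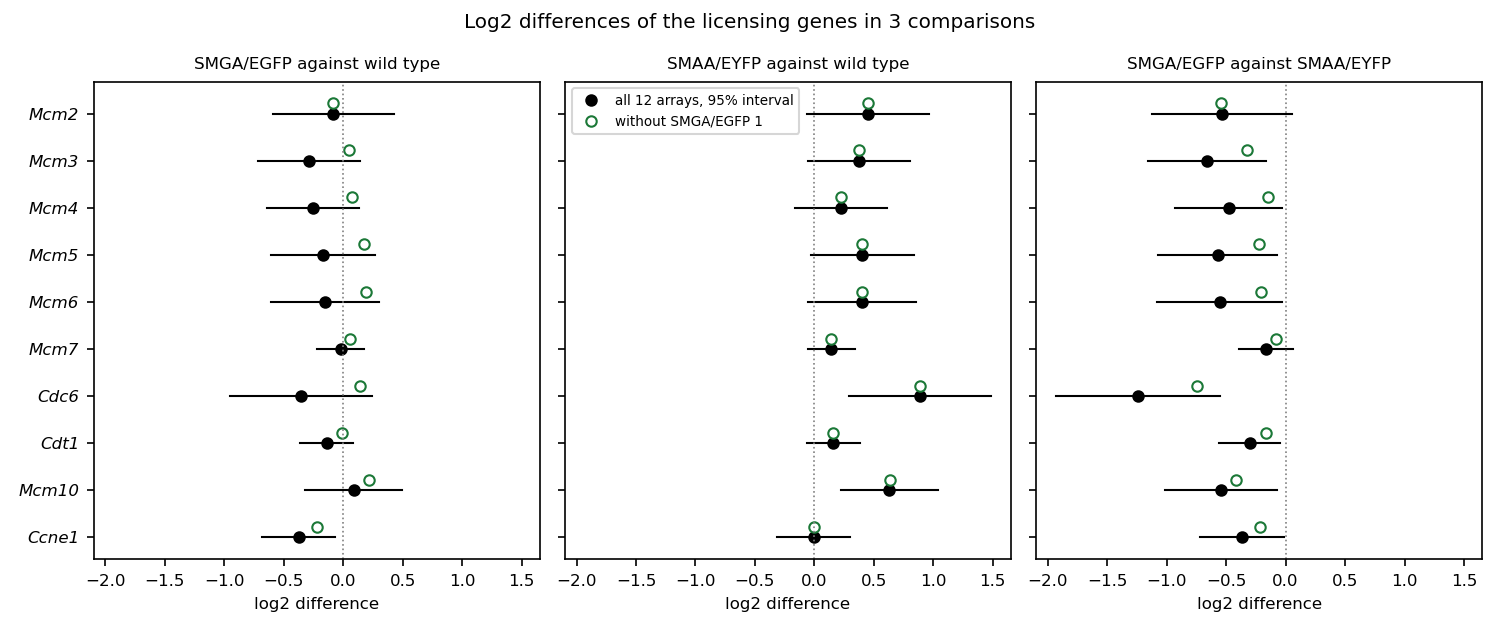
Log2 difference of each licensing gene (x axis) in the 3 group comparisons, with genes on the y axis. Filled points and lines are the difference and its 95% interval over all 12 arrays, and open points the difference without SMGA/EGFP 1; in the left panel 6 genes move across 0 without that array, while the middle panel hardly moves.

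The reporter groups lie in different runs of record numbers, and the wild-type arrays show how far the licensing genes differed between the runs at 1 genotype. In the second run against the first, 9 of 10 genes were below 0, against 45.6% of probe sets tested, with a median of -0.22 against 0.02 over all. None passed (limma; lowest adjusted p = 0.603), as did 0 of all probe sets (0%), and 1 of 10, Mcm7, had an unadjusted p under 0.05, against 4.30% of all probe sets in that direction. Mcm6 measured 5933, 5965 and 5801 in the second run, against 6319, 7185 and 9102 in the first. Mcm7 measured 14197, 13830.3 and 14429 in the second run, against 16108, 16064 and 16834 in the first. In the main probe sets of both genes all second-run arrays lay lower, which held for 2 of 10 members and 6.07% of all probe sets. The second tested probe set of Mcm6 overlapped between the runs (-0.18 ± 0.28), while the other tested probe sets of Mcm7 also lay lower. By deposited intensity wild type 3 was the highest wild-type array for every member except Ccne1, though not for Mcm7 after normalization, and without it the median between the runs was -0.11. Without wild type 4 that median was -0.22.

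Setting each reporter group against the wild type of its own run removes the shared wild-type arrays. The SMGA/EGFP effect minus the SMAA/EYFP effect was below 0 for 10 of 10 genes, against 49.9% of probe sets tested, with a median of -0.87 against 0.00 over all. None passed (limma; adjusted p = 1 for each), where 0.00888% were called, and 7 of 10 had an unadjusted p under 0.05, against 2.70% of all in either direction. Cdc6 was at -1.27 ± 0.47, Mcm2 at -1.05 ± 0.34 and Mcm10 at -0.90 ± 0.29. Ccne1 had the smallest, -0.27 ± 0.24. The median was -0.52 without SMGA/EGFP 1. This contrast includes the wild-type difference between the runs, which was -0.51 for Mcm2, -0.36 for Mcm10 and -0.03 for Cdc6. Without wild type 3, Mcm2 was at -0.78 and Mcm10 at -0.70.

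The members' deviations were followed from array to array. The mean deviation of the 10 genes from their 12-array means was -0.69, 0.03 and -0.00 in SMGA/EGFP 1 to 3, 0.19, 0.38 and 0.38 in SMAA/EYFP 1 to 3, and -0.01, -0.12, 0.29, -0.21, -0.17 and -0.06 in wild type 1 to 6. SMGA/EGFP 1 was thus low on its own, all SMAA/EYFP arrays were above 0, and wild type 3 reached into the SMAA/EYFP range. In SMGA/EGFP 1 all 10 genes lay below their own means, from -0.16 (Mcm2) to -1.48 (Cdc6). SMAA/EYFP 2 and 3 were each the highest array for 4 of 10 genes, against 8.35% and 6.22% of all probe sets tested.

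With group means taken off, the 45 pairs of members had a median Pearson r of 0.69 over the 12 arrays (-0.13 to 0.96), as a description, since the points share arrays and normalization. Leaving out SMGA/EGFP 1, it was 0.55 (-0.51 to 0.93). Mcm3 followed the mean of the other 9 most closely (r = 0.97), then Mcm5 (0.95), Mcm6 (0.91), Mcm4 (0.89), Cdt1 (0.86), Mcm10 (0.80), Cdc6 (0.77), Mcm7 (0.64), Ccne1 (0.45) and Mcm2 (0.38). That order changed without SMGA/EGFP 1: Mcm10 was at 0.97 and Mcm2 at 0.76, while Cdc6 was at 0.37 and Ccne1 at -0.07. The likeness of Ccne1 to the rest therefore rested on that array, and that of Cdc6 was weaker without it.

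Markers of other cell types also varied with the groups. The mesothelium list (Msln, Upk3b, Wt1, Lrrn4, Gpm6a and Muc16, 6 of 6 tested) had summed intensities of 15469 to 16972 in SMGA/EGFP, 26566 to 35459 in SMAA/EYFP and 17676 to 27332 in wild type, the same order as the licensing genes. Of its genes 3 of 6 fell in SMGA/EGFP against wild type (limma, lowest adjusted p = 0.00557), where 0.0622% of probe sets were called, and 6 of 6 were above 0 in the second wild-type run against the first. None of its markers was at 0, Msln being at 369 to 633 in SMGA/EGFP. The urothelium list (7 of 7) summed to 115945 to 126305 in SMGA/EGFP, 125368 to 137182 in SMAA/EYFP and 95694 to 125238 in wild type. Its genes were 7 of 7 above 0 in both transgenic groups (medians 0.16 in SMGA/EGFP and 0.30 in SMAA/EYFP). In SMAA/EYFP 4 of 7 had an unadjusted limma p under 0.05, against 2.67% of all probe sets in that direction. The endothelium list (6 of 6) summed to 9028 to 12823 in SMGA/EGFP, 9486 to 11782 in SMAA/EYFP and 11157 to 13450 in wild type, with 6 of 6 below 0 in both transgenic groups (medians -0.21 and -0.25). The leukocyte list (6 of 6) summed to 7397 to 11551 in SMGA/EGFP, 9754 to 11319 in SMAA/EYFP and 10374 to 13334 in wild type, with 6 of 6 below 0 in SMGA/EGFP (median -0.30). The neuron list (5 of 6 tested) summed to 8627 to 16566 in SMGA/EGFP, 1522 to 12250 in SMAA/EYFP and 1168 to 21701 in wild type. Against all wild-type arrays, 5 of 5 were above 0 in SMGA/EGFP (median 1.30). The wild-type arrays themselves parted by run, with 5 of 5 neuron genes below 0 in the second run against the first (median -2.64). The SMGA/EGFP value therefore depends on which run's wild type it is set against. None of the urothelium, endothelium, leukocyte or neuron genes passed in a group comparison (limma, lowest adjusted p = 0.494). SMGA/EGFP 1 was not set apart from its group by the mesothelium list (mean deviation -1.40, against -1.45 and -1.15 in SMGA/EGFP 2 and 3), but it had the lowest urothelium sum of its group and the highest smooth muscle sum of all arrays. Its mean deviations were 0.14 for fibroblast, 0.14 for endothelium, -0.08 for leukocyte, 0.71 for neuron and 0.89 for skeletal muscle markers. Its log2 ratios of 3-prime over 5-prime probe sets, 0.15 for Gapdh and 0.74 for Actb, lay within the range of the other arrays. The part of these in the licensing differences was not tested.

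Genes that act beside the licensing set were grouped in lists by role, and none of the 8 pathway lists held a gene past the threshold in any of the 3 group comparisons (limma). The origin recognition and licensing partners list had 12 of 12 genes tested, with medians of -0.11 in SMGA/EGFP and 0.08 in SMAA/EYFP against wild type. Its named members, the 4 of smallest p in each list, included Orc4, an origin recognition subunit, at -0.44 ± 0.12 in SMGA/EGFP (limma adjusted p = 0.567) and 0.05 ± 0.12 in SMAA/EYFP. Gmnn (geminin, the inhibitor of CDT1) was at -0.33 ± 0.20 and 0.29 ± 0.20, Orc1 at -0.23 ± 0.19 and 0.32 ± 0.19, and Mcm8, a helicase of recombination, at -0.27 ± 0.20 and 0.30 ± 0.20, in SMGA/EGFP and SMAA/EYFP in that order. All 3 tested probe sets of Orc4 were below 0 in SMGA/EGFP, at -0.44, -0.41 and -0.30, and they were at 0.05, 0.06 and 0.00 in SMAA/EYFP.

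The lists for steps after licensing had the same order of groups. Origin firing genes (13 tested) had medians of -0.15 in SMGA/EGFP and 0.13 in SMAA/EYFP, with Cdc7, the kinase that phosphorylates loaded MCM, at -0.25 ± 0.11 and 0.14 ± 0.11, and Cdc45, a partner of the moving helicase, at -0.34 ± 0.21 and 0.33 ± 0.21. Gins2, of the GINS complex, was at 0.18 ± 0.14 and 0.40 ± 0.14, and Wdhd1, a replisome scaffold, at -0.20 ± 0.16 and 0.21 ± 0.16. Replication fork genes (24 tested) had medians of -0.05 and 0.15, with 23 of 24 above 0 in SMAA/EYFP, against 50.8% of all probe sets. Among them Pold1, the catalytic subunit of polymerase delta, was at -0.23 ± 0.15 and 0.25 ± 0.15, and Fen1, the flap endonuclease, at 0.04 ± 0.18 and 0.42 ± 0.18. Uhrf1, which guides maintenance methylation, was at -0.26 ± 0.20 and 0.27 ± 0.20, and Pcna, the sliding clamp, at -0.11 ± 0.10 and 0.16 ± 0.10. Nucleotide supply genes (6 tested) were 6 of 6 below 0 in SMGA/EGFP (median -0.14) and 6 of 6 above 0 in SMAA/EYFP (0.13), among them Rrm2, the regulated subunit of ribonucleotide reductase, at -0.37 ± 0.18 and 0.11 ± 0.18, and Slbp, which binds histone mRNA, at -0.25 ± 0.12 and 0.17 ± 0.12. Dut was at -0.14 ± 0.18 and 0.17 ± 0.18, and Rrm1 at -0.08 ± 0.13 and 0.11 ± 0.13. As in the licensing genes, the SMGA/EGFP side rested on SMGA/EGFP 1, without which the medians were 0.01 for firing, 0.09 for the fork and 0.10 for nucleotide supply.

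Regulators of licensing showed no common direction in SMGA/EGFP against wild type. Above 0 were 9 of 15 E2F and pocket protein genes, 10 of 16 G1 genes and 2 of 8 turnover genes, where 52.9% of all probe sets were below 0. In SMAA/EYFP against wild type the counts above 0 were 11, 10 and 5 in that order, against 50.8% of all probe sets. E2F and pocket proteins (15 tested) had medians of 0.04 in SMGA/EGFP and 0.05 in SMAA/EYFP, with Rbl1 (p107) at -0.25 ± 0.19 and 0.38 ± 0.19, Tfdp1, the E2F partner, at -0.19 ± 0.11 and 0.10 ± 0.11, Lin9 at -0.43 ± 0.21 and 0.02 ± 0.21, and Lin54 at 0.04 ± 0.19 and 0.34 ± 0.19. G1 cyclins, kinases and inhibitors (16 tested) had medians of 0.03 and 0.01. Its widest member was Cdkn1b (p27), the inhibitor of cyclin E with CDK2. It measured 813, 734 and 980.0 in SMGA/EGFP, 1272, 2493 and 2006 in SMAA/EYFP, and 544 to 975 in wild type. All SMAA/EYFP arrays lay above all other arrays, at 1.35 ± 0.21 over wild type (limma adjusted p = 0.138, unadjusted p = 1.84e-05), but the gene's other tested probe set gave 0.11 ± 0.22. Cdkn1a (p21) was at 0.49 ± 0.18 and 0.33 ± 0.18, Cdkn1c (p57) at 0.21 ± 0.19 and -0.35 ± 0.19, and Cdkn2d (p19) at -0.31 ± 0.15 and 0.10 ± 0.15. Licensing turnover genes (8 tested) had medians of -0.10 and 0.03, with Fzr1 (CDH1) at -0.17 ± 0.15 and -0.33 ± 0.15, Cul4a at -0.33 ± 0.15 and -0.23 ± 0.15, Dtl (CDT2, which targets CDT1) at -0.21 ± 0.16 and 0.12 ± 0.16, and Cdc20 at -0.32 ± 0.18 and -0.07 ± 0.18.

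Mitosis genes, which act after replication, followed another pattern over the arrays than the licensing genes. In SMGA/EGFP 20 of 21 were below 0 (median -0.26), against 52.9% of all probe sets tested, while in SMAA/EYFP the median was -0.04. Among the 20 were Tpx2, a spindle factor, at -0.51 ± 0.21, Racgap1 at -0.34 ± 0.14, Plk1 at -0.41 ± 0.22 and Ccnb2 (cyclin B2) at -0.35 ± 0.18. The mean deviation of this list was -0.42, -0.57 and 0.44 in SMGA/EGFP 1 to 3, so that SMGA/EGFP 2 was low and SMGA/EGFP 3 high for mitosis, where the licensing genes were at 0.03 and -0.00. Between the wild-type runs the lists stood opposite: 21 of 21 mitosis genes were above 0 in the second run against the first (median 0.24), where 9 of 10 licensing genes were below it. Of all probe sets tested, 45.6% were below 0 there. None of these mitosis genes passed there (limma; lowest adjusted p = 0.606).

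**Figure D3:**
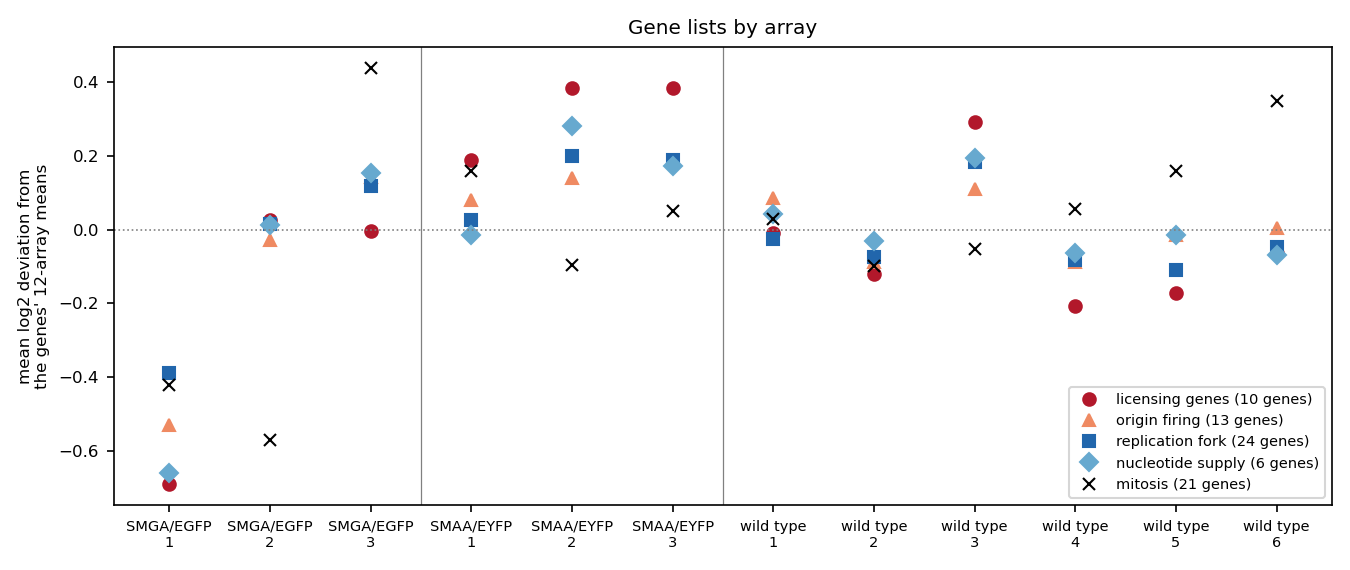
Mean log2 deviation of each gene list from its genes' 12-array means (y axis) on each array (x axis), for the licensing genes and 4 further lists. SMGA/EGFP 1 is low for all 5, at -0.69 for licensing; the crosses of mitosis part from the others at SMGA/EGFP 2 (-0.57) and SMGA/EGFP 3 (0.44).

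The same split appears gene by gene when each is set against the licensing mean with group means taken off. The median Pearson r over the 12 arrays was 0.84 for nucleotide supply, 0.72 for the replication fork and 0.68 for origin firing, against 0.10 for mitosis and -0.00 for all 11720 other genes tested. An r over 0.5 was found for 100% of nucleotide supply genes and 66.7% of fork genes, against 4.76% of mitosis genes and 12.6% of all. Medians without SMGA/EGFP 1 were 0.55, 0.58 and 0.27, against -0.25 for mitosis. These values share arrays and normalization and carry no test.

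**Figure D4:**
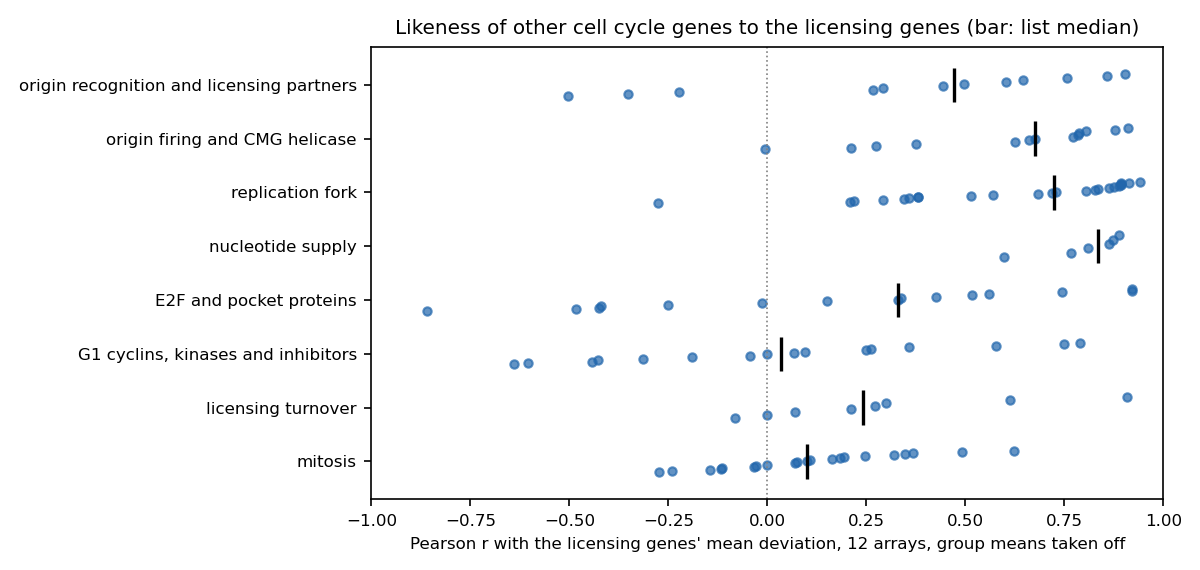
Pearson r of each gene with the mean deviation of the licensing genes over 12 arrays after group means were taken off (x axis), by pathway list (y axis). Points are genes and bars list medians; nucleotide supply (0.84) and the replication fork (0.72) lie to the right, mitosis (0.10) near the middle.

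The 8 genes most like the licensing mean by that measure, of 11720, were Cenps, Mre11a, Asf1b, Tipin, Haus6, Hells, Chaf1b and Polr2d. Cenps, a histone-fold protein of centromeres and DNA repair, had r = 0.96 (Spearman rho = 0.96), and Mre11a, a nuclease of double-strand break repair, 0.95 (rho = 0.88). Asf1b, a histone chaperone, had 0.95 (0.92), Tipin, of the fork protection complex, 0.95 (0.85), and Haus6, of the augmin complex, 0.94 (0.90). Hells, a chromatin remodeller, had 0.94 (0.91), Chaf1b, of chromatin assembly factor 1, 0.94 (0.94), and Polr2d, an RNA polymerase II subunit, 0.94 (0.87). Without SMGA/EGFP 1 these values of r were 0.84 to 0.88, and without both SMGA/EGFP 1 and SMAA/EYFP 2, the arrays farthest from the median, 0.85 to 0.89. With group means kept, 2 of the 8 remained among the first 8, Hells and Asf1b.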

How the data were processed

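Whole-bladder RNA was amplified in 1 round, labelled with biotin and hybridised to 1 Affymetrix array per sample, per the labels' protocols. The deposited intensities are linear values per probe set, made with GCOS per the submitters' processing notes (version not given in the sources used here). Each array's mean, trimmed at the 2nd and 98th percentiles, was near 1500 (1499.835 to 1500.008), and 8.35 to 10.6% of values lay under the pseudocount of 16. Here log2(intensity + 16) was quantile normalized with 64 control probe sets included, which were then removed. The other probe sets were filtered at the median of the means. They were tested with limma 3.58.1 (R 4.3.3, with trend, 3 groups and 12 arrays, or 4 cells for record runs), after a test on simulated data. p-values measure the spread between these samples. Symbols came from the platform annotation, checked against a RefSeq gene table: 34945 probe sets had 1, 932 several, 9160 none listed. Named besides the members were the 4 genes of smallest p per list and the 8 most like the members. The members and lists were chosen with earlier results of these data known. Alternatives covered pseudocount, filter, scaling, array weights, record run and left-out arrays.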

Additional observations from a re-analysis of the deposited data

Results flagged for a closer look

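One array, wild type 3, lay apart from the other 5 wild-type arrays in 3 of the 22 tested probe sets of the licensing genes, with a gap to its neighbour that took an unusually large share of the group's range by Dixon's test. For Mcm3 its normalized log2 level was 12.50, next to 12.07, and the gap was 0.727 of the range. For another Mcm3 probe set it was 10.49, next to 9.75. For the second Mcm2 probe set it was 11.88, next to 11.31. Chance flags about 1 in 20 groups, and these probe sets share the same array, so they are not separate observations. In each of them wild type 3 was the high one.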

How the results depend on the processing

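No member passed the threshold under any alternative run (lowest adjusted p 0.135). The direction of a member's difference held in 239 of 259 values for SMGA/EGFP against wild type, in 253 of 259 for SMAA/EYFP against wild type and in 249 of 249 for SMGA/EGFP against SMAA/EYFP. It held in 160 of 160 for the difference of effects and in 154 of 160 between the wild-type runs. The cause of the changes below was not tested. In SMGA/EGFP against wild type, array weights gave 0.055 for Mcm5 and 0.098 for Mcm7, while Mcm10 was at -0.091 with the record run as a block and at -0.088 with only the wild type of its run. Leaving out 1 array at a time gave -0.20 to 0.072 for Mcm2, -0.48 to 0.049 for Mcm3, -0.50 to 0.075 for Mcm4, -0.37 to 0.18 for Mcm5, -0.38 to 0.19 for Mcm6, -0.12 to 0.060 for Mcm7, -0.0031 to 0.22 for Mcm10 and -0.68 to 0.14 for Cdc6. Without SMGA/EGFP 1 and wild type 4 together, an alternative chosen after seeing the data, Mcm3 was at 0.024, Mcm4 at 0.049, Mcm5 at 0.13, Mcm6 at 0.16, Mcm7 at 0.047 and Cdc6 at 0.11. In SMAA/EYFP against wild type, Ccne1 was at 0.033 with median-centred arrays, at 0.027 with array weights and at -0.095 to 0.14 with 1 array left out. Between the wild-type runs, median centring gave 0.041 for Cdc6 and 0.051 for Cdt1, and leaving out 1 array gave -0.20 to 0.15 and -0.13 to 0.034. Over all probe sets, the 14 calls for SMGA/EGFP against wild type were 5 with the filter at the 75th percentile, 8 when fitted without the third group, 1 with only the wild type of the same run, 6 to 20 with 1 array left out and 3 without both arrays. The 0 calls for SMAA/EYFP against wild type were 5 with median centring and 5 with array weights. The 18 for SMGA/EGFP against SMAA/EYFP were 10 with the stricter filter, 2 with the run block, 4 to 22 with 1 array left out and 7 without both. Between the wild-type runs the 0 calls were 1 with no filter and 0 to 430 with 1 array left out, the highest without wild type 3, and the 2 for the difference of effects were 1 with median centring and 1 to 3 with 1 array left out. The members' median for SMGA/EGFP against SMAA/EYFP was -0.87 with the run block, -0.66 to -0.22 with 1 array left out and -0.22 without both, and that of the difference of effects was -0.997 to -0.52. Of the 8 genes most like the members, 2 remained with group means kept. No paired analysis was possible because the labels give the groups no shared replicate numbers. Restricting wild type to the same run could not be applied to SMGA/EGFP against SMAA/EYFP. With 3 arrays in a transgenic group, a gene that was not called may still differ by any value inside its printed interval.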

Other observations

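The regulators of G1 were also compared between the wild-type runs. In the second run against the first, 12 of the 16 genes tested were below 0, with a median of -0.24 against 0.02 over all probe sets tested, and 7 had an unadjusted p under 0.05 below 0, against 4.30% of all. In the group comparisons the list's medians were 0.03 for SMGA/EGFP against wild type (6 of 16 below 0), 0.01 for SMAA/EYFP against wild type (6 of 16) and -0.07 for SMGA/EGFP against SMAA/EYFP (10 of 16), and their difference from the run comparison was not tested. None passed the threshold between the runs (limma, lowest adjusted p = 0.451). The genes named here were chosen after their values were seen. Mycn, a transcription factor of growing tissue, was at -0.91 ± 0.29, Skp2, the ubiquitin ligase subunit that marks p27 for destruction, at -0.71 ± 0.30, and Ccnd1 (cyclin D1) at -0.50 ± 0.17. Cdkn1a was at -0.48 ± 0.17 and Cdkn1c at -0.46 ± 0.19, while Cdkn1b, another inhibitor, was at 0.46 ± 0.22. In the same comparison the neuron markers (5 tested) had 5 of 5 below 0 and a median of -2.64 (limma, lowest adjusted p = 0.441), and their part in these values was not tested.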
